A study of Mus musculus with 23 samples.

Results

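Etv4, Etv5, Spry1, Spry2, Spry4, Dusp6 and Il17rd are genes whose transcription follows fibroblast growth factor (FGF) signalling in limb mesenchyme. They were chosen by symbol, as known transcription factors and feedback inhibitors downstream of FGF, with earlier results of these data known. All 7 are among the 34682 genes that the authors' deposited table lists for Inv1DelCTCF and Inv1. Polyadenylated RNA was sequenced from distal forelimbs of mouse embryos at E11.5, with 2 libraries of Inv1DelCTCF and 3 of Inv1. The study moved an enhancer cluster of the Epha4 domain into a region with many genes by engineered inversions, and Inv1DelCTCF, by its name, combines inversion Inv1 with a deletion at a CTCF site. Both groups thus carry the inversion, and neither is wild type. The labels give G4 ESC, an embryonic stem cell line, as the cell type of every library. The design text calls the libraries biological replicates without naming clones or litters, so whether the p-values cover variation between them is unknown. The tables that set Inv1, Inv2, Inv3 and Inv4 against wild type list 0 of the 7 members, whose levels against wild type were not analysed here. The members lie on chromosomes 3, 10, 11, 14, 16 and 18 of the GENCODE annotation (GRCm38), and Epha4 lies on chromosome 1.

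The apical ectodermal ridge, an epithelium along the limb bud margin, secretes FGFs that bind receptors on the mesenchyme beneath it and activate the RAS to ERK kinase cascade. Active ERK induces the ETS transcription factors Etv4 and Etv5, which carry the signal into the nucleus, and it also induces its own inhibitors. Sprouty proteins (Spry1, Spry2, Spry4) dampen signalling between the receptor and RAS or RAF, Dusp6 is a phosphatase that removes the activating phosphates from ERK, and Il17rd (also called Sef) is a membrane protein that holds the pathway back. Levels of these genes are widely used to read the strength of FGF signalling in the limb bud.

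All 7 members had lower values in Inv1DelCTCF than in Inv1, and 5 of them fell at an adjusted p under 0.05 in the authors' deposited table. That is 71.4% of the members, against 11.7% of the 11218 genes with an adjusted p (7.89% lower and 3.81% higher in Inv1DelCTCF). As the members were chosen with earlier results of these data known, this contrast is a description and no test of the set. At a limit of 0.01, 4 members passed, against 5.13% of genes (3.54% lower, 1.6% higher), and at 0.1, 6 passed, against 17.4% (11.3% lower, 6.08% higher). The members' median log2 change was -0.48, a level of 0.717 of that in Inv1, and the median over all 11218 genes was -0.01. The files give no value per library. Error is therefore given as the standard error (SE) that the authors deposited for each log2 change, and group levels were rebuilt from the mean over the 5 libraries and the ratio of the groups, in normalised counts. In whole tissue, fewer cells expressing a gene and less RNA per cell cannot be told apart.

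The ETS factors had the smallest p-values of the set. Etv4 had a rebuilt level of 1432 normalised counts in Inv1DelCTCF and 2178 in Inv1. For Etv4, the authors' deposited table gives a log2 change of -0.61 with an SE of 0.112 (adjusted p = 1.21e-05), which is 0.657 of the Inv1 level with a 95% interval of 0.565 to 0.765. Etv5, its close paralog, had 3332 in Inv1DelCTCF and 4645 in Inv1. For Etv5, the authors' deposited table gives -0.48 with an SE of 0.0965 (adjusted p = 9.12e-05), or 0.717 of the Inv1 level (0.629 to 0.818). Neither interval reached 1. Etv1, the other gene of the Pea3 subfamily, is no member, and the authors' deposited table gives it -0.18 with an SE of 0.135 (adjusted p = 0.411).

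Of the 3 Sprouty genes, Spry1 and Spry2 fell, and Spry4 did not pass the test although its log2 change was the lowest of the 7. Spry1 had 1126 normalised counts in Inv1DelCTCF and 1647 in Inv1, and the authors' deposited table gives it -0.55 with an SE of 0.139 (adjusted p = 0.00269). Spry2 had 1954 in Inv1DelCTCF and 2412 in Inv1, and the authors' deposited table gives it -0.30 with an SE of 0.0970 (adjusted p = 0.0231), the log2 change nearest to 0 among the members. Spry4 had 1357 in Inv1DelCTCF and 2107 in Inv1, a ratio of 0.644 with an interval of 0.456 to 0.911. For Spry4, the authors' deposited table gives -0.63 with an SE of 0.255 (adjusted p = 0.0816). Exons of Spry1 share 710 bases with Gm42922, an annotated gene on the opposite strand. The strand setting of the counting is not given in the sources used here, so reads of the 2 genes cannot be told apart.

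Of the other feedback inhibitors, Il17rd fell and Dusp6 did not pass the test. Il17rd had 4796 normalised counts in Inv1DelCTCF and 6137 in Inv1, and the authors' deposited table gives it -0.36 with an SE of 0.0953 (adjusted p = 0.00514). Dusp6 had 5505 in Inv1DelCTCF and 7537 in Inv1. For Dusp6, the authors' deposited table gives -0.45 with an SE of 0.233 (unadjusted p = 0.0513, adjusted p = 0.194), and its 95% interval of -0.91 to 0.00 just reached zero.

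**Figure D1:**
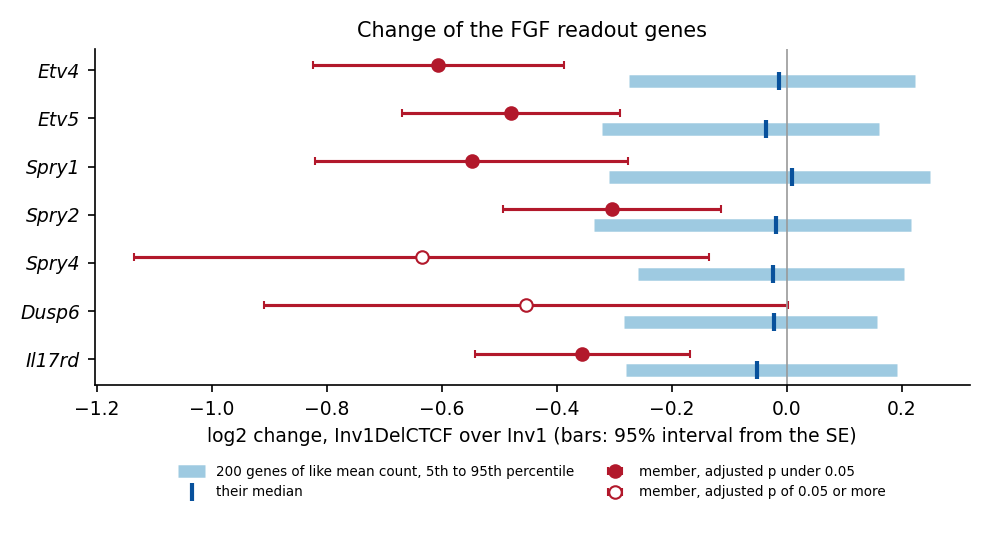
Log2 change of each member in Inv1DelCTCF over Inv1 (red points, bars are 95% intervals from the SE, filled where the adjusted p is under 0.05), with the 5th to 95th percentile and median of 200 genes of like mean count in blue below each. Points lie between -0.63 (Spry4) and -0.30 (Spry2), and the intervals of Spry4 and Dusp6 are the widest.

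The members' log2 changes lay close together, over a width of 0.33, and the median SE of the members was 0.112. Weighted by the inverse of their variance, the members averaged -0.45, a value inside the 95% interval of each of the 7. In 0 of the 21 pairs of members did the intervals separate, which does not show that members changed alike. Without values per library the members cannot be taken as independent of each other.

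The genes of like mean count, the 200 nearest in rank to each member, centred near 0. Their median log2 changes lay between -0.05 and 0.01 in the 7 sets, and between 7% and 19% of them were called lower in Inv1DelCTCF in the authors' deposited table. None of the 200 genes around Etv4, Etv5, Spry4 or Dusp6 had a log2 change below that of the member, and 1 of 200 did around Spry1, 5 around Il17rd and 12 around Spry2. Of all 11218 genes, 1.43% had a log2 change as low as the members' median. Around the members with the higher counts, 38 of 200 genes were called lower beside Dusp6, 35 beside Il17rd and 32 beside Etv5. Around the others it was 19 of 200 beside Spry2 and 14 of 200 beside each of Etv4, Spry1 and Spry4.

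Spry4 and Dusp6 stood apart from the other members in their SE. The SE of Spry4 was 3.12 times and that of Dusp6 3.65 times the median SE of their 200 neighbours in mean count, and 1 and 2 of those neighbours had a larger SE. In the other 5 members the SE was 1.24 (Spry2) to 1.59 (Spry1) times that median. Their SEs were also high among their neighbours, of which 8 of 200 (Spry1) to 23 of 200 (Spry2) had a larger one. An SE of over 3 times the neighbours' median, a limit chosen after seeing the data, was found for 128 of the 11218 genes (1.14%), and 40 genes lay between 2 and 3 times. Of those 128 genes, 1 (0.781%) was called in the authors' deposited table. At its SE, Spry4 would have needed a log2 change of -0.70 and Dusp6 one of -0.64 to be called, against -0.26 for Il17rd and -0.27 for Etv5. The log2 changes of Spry4 and Dusp6 were no nearer to 0 than those of Spry2 and Il17rd, which were called, while their SEs were the largest.

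**Figure D2:**
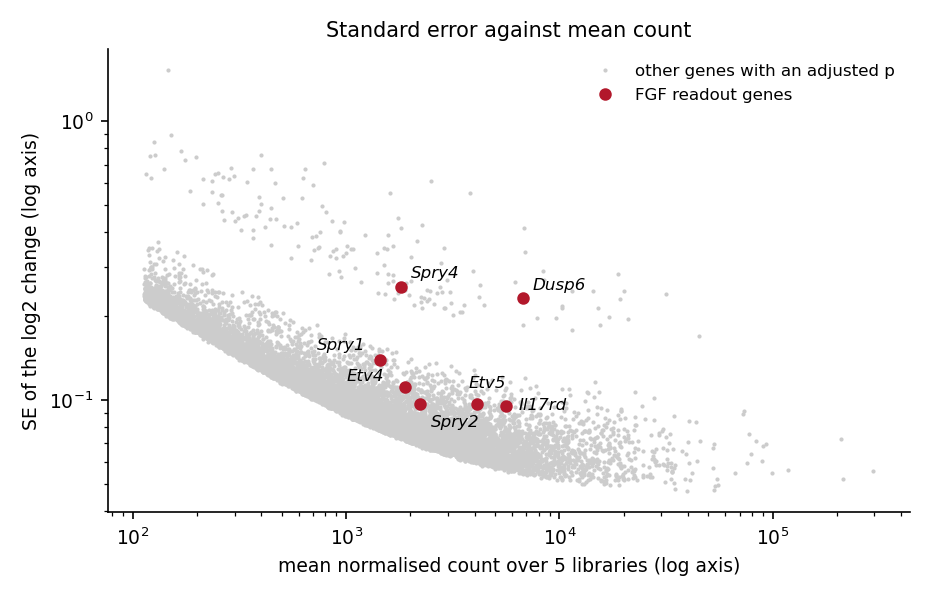
SE of the log2 change against the mean normalised count over 5 libraries (both axes log) for the genes with an adjusted p (grey) and the 7 members (red). Spry4 and Dusp6 lie in the sparse upper band, at SEs of 0.255 and 0.233. The other 5 lie in the dense lower band, each above the median SE of its neighbours in mean count.

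Of the other listed genes, 8 had such a wide SE, 4 with lower and 4 with higher values in Inv1DelCTCF, and 0 were called in the deposited DESeq2 test (5 at an unadjusted p under 0.05). They are named after their values were seen. Fgf8, the main ridge FGF, had 131.8 normalised counts in Inv1DelCTCF and 303.2 in Inv1. For Fgf8, the authors' deposited table gives -1.20 with an SE of 0.609 (adjusted p = 0.188). Dusp9, another MAP kinase phosphatase, stands at -0.52 with an SE of 0.224 (adjusted p = 0.111) in the authors' deposited table. Ier2, an immediate early gene, stands at -0.67 with an SE of 0.284 (adjusted p = 0.106) in the authors' deposited table. Msx1, a homeobox gene of the distal mesenchyme, stands there at -0.99 with an SE of 0.421 (adjusted p = 0.103). The 4 with higher values are Sulf1, a heparan sulfate sulfatase (0.47, SE 0.341), the cartilage genes Acan (1.56, SE 0.683) and Col2a1 (0.25, SE 0.246) and the muscle gene Myog (0.56, SE 0.391) by the authors' deposited table. The files do not show which library carries the spread.

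Per kilobase of exon, Dusp6 was the most abundant member and Spry4 the least in both groups. Dusp6 had 1758 normalised counts per kilobase in Inv1DelCTCF and 2406 in Inv1. Spry2 followed with 936 in Inv1DelCTCF and 1156 in Inv1, Etv5 with 812 in Inv1DelCTCF and 1132 in Inv1, and Etv4 with 461 in Inv1DelCTCF and 702 in Inv1. The 3 lowest members were Il17rd with 437 in Inv1DelCTCF and 559 in Inv1, Spry1 with 388 in Inv1DelCTCF and 567 in Inv1, and Spry4 with 285 in Inv1DelCTCF and 443 in Inv1. Il17rd and Spry1 changed places between the groups with these lengths, which join all exons of a gene. Per kilobase of the longest transcript, Il17rd had 579 in Inv1DelCTCF and 741 in Inv1, above Spry1 with 406 in Inv1DelCTCF and 594 in Inv1. By that length Etv5 had 838 in Inv1DelCTCF and 1169 in Inv1, and so passed Spry2, with 936 in Inv1DelCTCF and 1156 in Inv1, in Inv1 only. Levels of different genes have no error in these files, so whether neighbours in this order differ, such as Spry2 and Etv5, cannot be said. Over both groups every member exceeded the median of all genes with an adjusted p, 277 per kilobase, and Dusp6 ranked 515 of 10939.

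**Figure D3:**
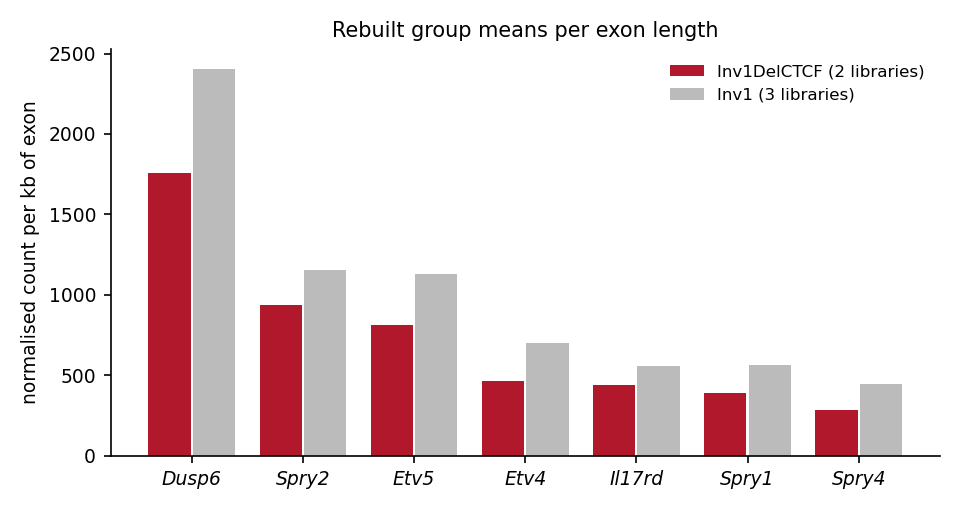
Rebuilt group means of the members in normalised counts per kilobase of exon, with Inv1DelCTCF in red to the left of Inv1 in grey. Each red bar is lower than its grey neighbour, from 1758 against 2406 for Dusp6 to 285 against 443 for Spry4, and no error bars are drawn because the files give no value per library.

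Sequence upstream of the members' starts is shown because several FGF feedback genes are known to be activated through ETS factors, the family of Etv4 and Etv5, which bind sites with the core GGAA. Windows of 5 of the members were taken from the RefSeq promoter table (GRCm38.p6). Etv4 had no entry there, and Spry4 was left out, so the promoters of these genes were not examined. Each stretch runs 5′ to 3′ on the strand of the gene and ends before its first annotated exon, and capitals mark each GGAA, or TTCC where the motif is on the other strand. The positions are chr10:99262981-99263230 (plus strand) for Dusp6, chr3:37639697-37639946 (plus) for Spry1, chr14:105896820-105897069 (minus) for Spry2, chr14:27038751-27038940 (plus) for Il17rd and chr16:22439720-22439820 (minus) for Etv5.
Dusp6: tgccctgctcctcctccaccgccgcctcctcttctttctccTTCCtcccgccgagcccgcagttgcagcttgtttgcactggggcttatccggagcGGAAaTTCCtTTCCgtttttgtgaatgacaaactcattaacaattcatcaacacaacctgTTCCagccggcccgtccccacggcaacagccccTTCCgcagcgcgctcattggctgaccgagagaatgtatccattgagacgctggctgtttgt
Spry1: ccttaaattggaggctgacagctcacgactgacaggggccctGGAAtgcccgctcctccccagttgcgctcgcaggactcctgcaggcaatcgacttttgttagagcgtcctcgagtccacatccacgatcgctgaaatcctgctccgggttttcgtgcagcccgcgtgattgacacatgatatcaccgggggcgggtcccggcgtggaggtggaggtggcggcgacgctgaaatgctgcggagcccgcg
Spry2: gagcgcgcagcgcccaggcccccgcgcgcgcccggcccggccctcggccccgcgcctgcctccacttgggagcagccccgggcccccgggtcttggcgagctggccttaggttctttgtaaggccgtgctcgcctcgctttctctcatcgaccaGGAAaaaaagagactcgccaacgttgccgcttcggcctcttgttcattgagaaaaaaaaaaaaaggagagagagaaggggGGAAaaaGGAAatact
Il17rd: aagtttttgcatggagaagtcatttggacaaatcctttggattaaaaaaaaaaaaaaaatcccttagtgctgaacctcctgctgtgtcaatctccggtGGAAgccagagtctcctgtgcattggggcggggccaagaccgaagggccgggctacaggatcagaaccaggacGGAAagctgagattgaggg
Etv5: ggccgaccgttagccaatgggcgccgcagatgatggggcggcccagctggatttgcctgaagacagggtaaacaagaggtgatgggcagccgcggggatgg

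GGAA matched 6 times in the 250 bases of Dusp6, 3 times in those of Spry2 and 1 time in those of Spry1. It matched 2 times in the 190 bases of Il17rd and 0 times in the 101 bases of Etv5. In their full windows of 250 bases it matched 4 times for Il17rd and 0 times for Etv5. The other motif counts, GC and CpG values of the members below are from full windows. Such matches are common, since 93.4% of 32851 promoter windows of 250 bases hold at least 1, with a median of 3 (both strands counted). Etv5 has another annotated start inside the gene, whose window holds 4. GGAAG, which contains GGAA, matched 2 times for Dusp6, 2 times in that inner window of Etv5 and 1 time for Il17rd, and 64.1% of all windows hold it. CCGGAA, which also contains GGAA, was in 0 of the 6 member windows examined, none of Etv4 or Spry4, and in 3952 of all 32851. The AP-1 motif TGANTCA was in 0 of 6 and in 6.75% of all windows. The member windows had 54.4% (Il17rd) to 71.2% GC (Etv5), against a median of 52.4%, and 10 to 27 CpG dinucleotides against a median of 6. A match describes letters only, and binding was not measured.

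GC content moved with the comparison as a whole. Across genes, GC content of the longest transcript and log2 change were related with a Spearman rho of -0.52 (given as a description, as genes share libraries), GC-rich transcripts being lower in Inv1DelCTCF. The members' transcripts ranged from 46.2% GC (Spry2) to 58.7% (Etv4), and Etv4 and Spry1 stood above 93.0% and 85.9% of genes in GC content. A trend in GC content and transcript length had a fitted value of -0.17 for Etv4, -0.14 for Spry1 and between -0.06 and 0.04 for the other 5. With the trend subtracted, the members' log2 changes lay between -0.58 and -0.29 with a median of -0.42, and 3 of 7 passed. Etv4 (-0.43, adjusted p = 0.00737), Etv5 (-0.42, adjusted p = 0.00192) and Spry2 (-0.34, adjusted p = 0.0191) passed in the Wald test on the trend-subtracted values. Spry1 (-0.41, adjusted p = 0.0686) and Il17rd (-0.29, adjusted p = 0.0533) no longer did in that Wald test. Both values still lay beyond the log2 change needed for a call in the deposited test, -0.38 for Spry1 and -0.26 for Il17rd. An adjusted p also depends on the p-values of all genes, of which fewer were called with the trend subtracted. Of all genes 3.66% were then called, 1.65% lower and 2.01% higher. The part of GC content in the members' values was not tested further.

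**Figure D4:**
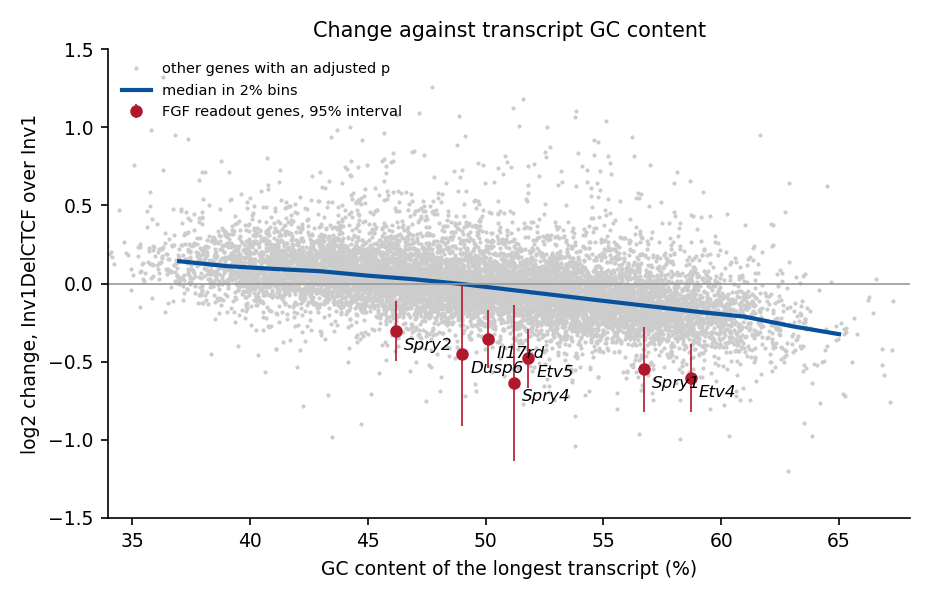
Log2 change in Inv1DelCTCF over Inv1 against the GC content of the longest transcript, for the genes with an adjusted p (grey), their median in bins of 2% (blue line) and the members with 95% intervals (red). The axes leave out 19 genes. All 7 members lie below the blue line, Spry2 at 46.2% GC and Etv4 at 58.7% GC being the ends of their range.

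Further FGF pathway genes had a median log2 change of -0.10 over 9 lists, against -0.48 in the members. Of these 82 genes with an adjusted p, 17 (20.7%) fell and 4 (4.88%) rose in the authors' deposited table, and 60 had negative values. Over all genes with an adjusted p, 7.89% fell and 3.81% rose. Of the FGF family genes in the ligand list, 0 of 6 passed (median -0.07). The other 16 of 22 had no adjusted p, among them Fgf4. The list also holds Fgf11, Fgf12, Fgf13 and Fgf14, whose proteins stay in the cell and are not secreted ligands. Fgf11 (0.31) and Fgf13 (0.29) had positive log2 changes in the authors' deposited table. The other 4 genes of the list with an adjusted p were negative. Fgf10, the mesenchymal ligand that maintains the ridge, stands at -0.20 with an SE of 0.109 (adjusted p = 0.235) in the authors' deposited table. Fgf9, a ridge ligand, stands there at -0.01 with an SE of 0.142. Of the receptor genes, 0 of 5 passed, and their median was 0.27. Fgfr1, the main mesenchymal receptor, stands at -0.10 with an SE of 0.0744 in the authors' deposited table. Fgfr2 stands at 0.27 with an SE of 0.111 (adjusted p = 0.0993) and Fgfr3 at 0.37 with an SE of 0.139 (adjusted p = 0.0643) in the authors' deposited table. At an unadjusted p under 0.05 in the deposited DESeq2 test, 5 genes of the ligand list passed, 1 lower and 4 higher in Inv1DelCTCF. Fgf12 and Fgf13 were among the 4 higher ones, of which 3 had too few counts for an adjusted p. By the same measure 3 receptors passed, all higher. With the trend subtracted 1 receptor gene, Fgfr3, was called higher (adjusted p = 0.0161 in the Wald test).

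Of the cascade genes between receptor and ERK, 5 of 19 fell and 1 rose, with a median of -0.10 (7.89% of all genes with an adjusted p fell and 3.81% rose). Map2k2, a MEK kinase, stands at -0.37 with an SE of 0.0985 (adjusted p = 0.00487) by the authors' deposited table, and Mapk3, which encodes ERK1, at -0.23 with an SE of 0.0748 (adjusted p = 0.0254). Cbl, a ubiquitin ligase that downregulates receptors, stands at -0.27 with an SE of 0.0831 (adjusted p = 0.0174) by the authors' deposited table, and the RAF kinase Araf at 0.21 with an SE of 0.0675 (adjusted p = 0.0258). Heparan sulfate is the matrix sugar that FGFs need to bind their receptors. Of 19 genes of its enzymes and carrier proteins, 5 fell and 2 rose, with a median of -0.04. The smallest adjusted p of these belonged to Gpc1 (-0.35), Ndst1 (-0.30), Extl3 (-0.28) and Sulf2 (-0.23) in the authors' deposited table.

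Relatives of the members and other targets of the cascade showed more falls than rises, as did all genes with an adjusted p (7.89% lower and 3.81% higher). The 3 Spred genes all had negative values, and Spred2, an inhibitor related to Sprouty, fell (-0.35, SE 0.0817, adjusted p = 0.00100 by the authors' deposited table). Spry3 was listed at 0. All 6 of the other MAP kinase phosphatases tested were negative, with a median of -0.28, and Dusp7 fell (-0.36, SE 0.0912, adjusted p = 0.00287 by the authors' deposited table). All 10 of the other ETS factors and Cic were negative, with a median of -0.17, and Elk4 (-0.46), Erf (-0.38) and Ets2 (-0.22) fell by the authors' deposited table. Of 13 further genes known to be induced by FGF or ERK, 2 fell and 1 rose, with a median of -0.14. Mycn, a regulator of growth, fell (-0.60, SE 0.119, adjusted p = 7.15e-05 by the authors' deposited table), as did Phlda1 (-0.37, SE 0.127, adjusted p = 0.0338). Flrt2, a membrane protein, rose (0.44, SE 0.125, adjusted p = 0.00951 by the authors' deposited table). Il17ra, the other IL17 receptor gene with an adjusted p, stands at -0.05 with an SE of 0.165 in the authors' deposited table.

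**Figure D5:**
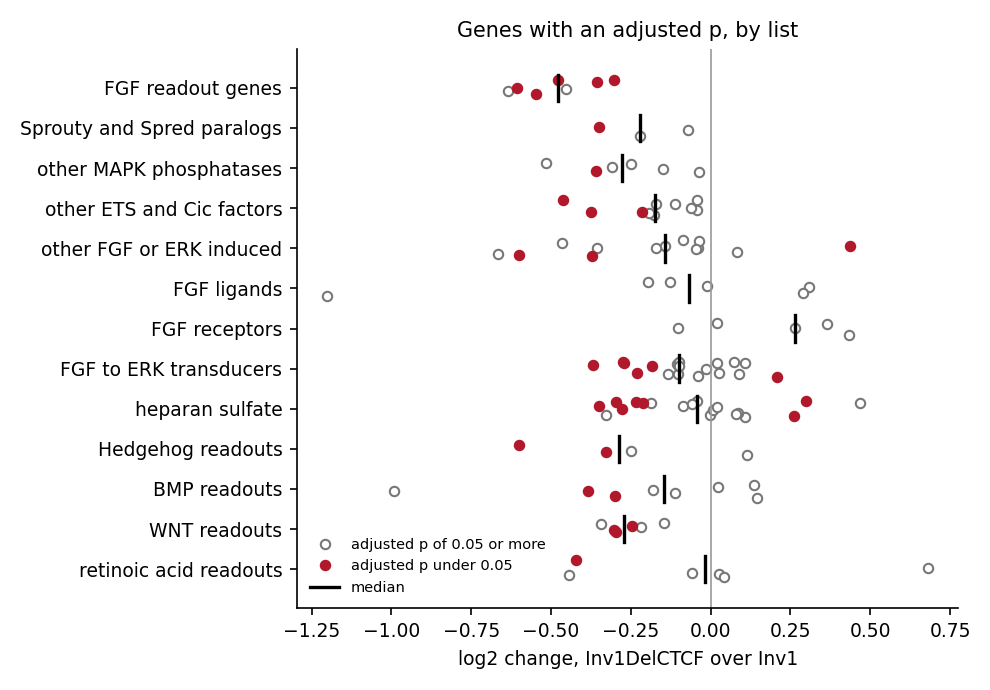
Log2 change in Inv1DelCTCF over Inv1 for each gene with an adjusted p, by list (filled where the adjusted p is under 0.05, black bars are medians). The members' median of -0.48 lies to the left of the medians of all other lists drawn, which run from -0.29 (Hedgehog readouts) to 0.27 (FGF receptors).

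Readouts of other limb pathways also held falls and no rises, 8 (33.3%) and 0 of 24, with a median of -0.23. Over all genes with an adjusted p, 7.89% fell and 3.81% rose. The difference of these readouts from the members was not tested. Of the Hedgehog readouts 2 of 4 fell (median -0.29), among them Ptch1 by 0.33 on the log2 scale of the authors' deposited table. Of the WNT readouts 3 of 6 fell (median -0.27), Lef1 by 0.30, Znrf3 by 0.30 and Axin2 by 0.25 in the authors' deposited table. Of the BMP readouts 2 of 8 fell (median -0.15), Id1 by 0.38 and Smad7 by 0.30 in the authors' deposited table. Of the 6 retinoic acid readouts (median -0.02), Cyp26b1, which degrades retinoic acid, fell by 0.42 in the authors' deposited table. With the GC and length trend subtracted, 1 gene of these 4 lists was called lower, as were 3 genes of the 9 FGF pathway lists and 1.65% of all genes.

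Markers of the labelled tissue were present, and the 3 shown first were chosen after their values were seen. All 3 were slightly higher in Inv1DelCTCF, while 5 of 9 mesenchyme genes and 3 of 6 distal genes had negative log2 changes. Prrx1 of the limb mesenchyme had 26274 normalised counts in Inv1DelCTCF and 25638 in Inv1, the forelimb gene Tbx5 had 7449 in Inv1DelCTCF and 7155 in Inv1, and the distal gene Hoxd13 had 19634 in Inv1DelCTCF and 18981 in Inv1. Among markers of the ridge and the surface ectoderm, some were lower as well (7.89% of all genes with an adjusted p fell and 3.81% rose). Of 10 ridge genes 7 had an adjusted p, of which 3 fell and 0 rose (median -0.35), and the list summed to 14916 in Inv1DelCTCF and 17053 in Inv1. Most of that sum was Wnt5a, which distal mesenchyme also expresses, and without it the list summed to 2865 in Inv1DelCTCF and 3631 in Inv1. Dlx2, which mesenchyme also expresses, stands at -0.75 with an SE of 0.186 (adjusted p = 0.00234) by the authors' deposited table, and Sp8, a factor needed to keep the ridge, at -0.64 with an SE of 0.183 (adjusted p = 0.00928). Of 12 surface ectoderm genes 5 fell and 0 rose (median -0.28), among them Krt5 (-0.30) and Cdh1 (-0.39) by the authors' deposited table, and the list summed to 11141 in Inv1DelCTCF and 13408 in Inv1. The other 7 did not pass, and among them Krt15 stands at 0.77 with an SE of 0.305 (adjusted p = 0.0757) by the authors' deposited table. With the GC and length trend subtracted, 2 of the ridge genes and 0 of the 12 surface ectoderm genes were called lower, against 1.65% of all genes. The part of these markers in the members' fall was not tested.

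Of the distal list 2 of 6 fell (Hoxd12 by 0.25 and Hoxa13 by 0.30), and of the proximal list 2 of 7 rose (Shox2 by 0.27 and Hoxa9 by 0.21) in the authors' deposited table. The distal list summed to 42781 normalised counts in Inv1DelCTCF and 44489 in Inv1, and the proximal list to 19939 in Inv1DelCTCF and 18279 in Inv1. Of the mesenchyme list 1 of 9 fell (Lhx2 by 0.41), of the endothelial list 1 of 8 (Cdh5 by 0.24) and of the erythroid list 2 of 6 (Hba-x by 0.44 and Hbb-bh1 by 0.28) in the authors' deposited table. Over all genes with an adjusted p, 7.89% fell and 3.81% rose. The shares that fell in the mesenchyme (11.1%) and endothelial (12.5%) lists were near that of all genes. The sum of the mesenchyme list was 58518 in Inv1DelCTCF and 60309 in Inv1. The globins Hba-a1 and Hbb-b1 were listed at 0. Of the cartilage, muscle precursor, macrophage and Schwann precursor lists, 0 of 16 genes with an adjusted p passed in the deposited DESeq2 test. Over the whole of these lists 5 genes had an unadjusted p under 0.05, all higher in Inv1DelCTCF. Cartilage markers summed to 33619 in Inv1DelCTCF and 29730 in Inv1. The part of these markers in the members' values was not tested.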

How the data were processed

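Per the labels' protocols, RNeasy kits were used for the RNA and standard Illumina protocols for the libraries. STAR, DESeq2 and the build mm9 are named without versions, per the submitters' processing notes. The deposited columns are, as the authors' headers name them, a mean of normalised counts (a signal over the libraries of the fit), a log2 fold change with its SE, a Wald score, a p-value and an adjusted p-value. The depth of single libraries is unknown, and the means sum to 3.02e+07 normalised counts. Genes with a mean under 113 had no adjusted p.

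The headers do not name the numerator. Inv1 levels rebuilt from the 4 wild type tables over 49 genes with a mean of at least 300 matched those of the Inv1DelCTCF table with a median residual of 0.0124 on the log2 scale if its positive values mean higher in Inv1, against 0.107 or more under the other 3 conventions. The sign was turned, so positive is higher in Inv1DelCTCF here.

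Genes with an adjusted p under 0.05 were called. The longest GENCODE transcript (GRCm38) supplied GC content and length for 97.5% of those tested, and a weighted trend, cubic in each and with their product, was fitted to the log2 changes. Exon lengths came from the same annotation. Members and lists were chosen with earlier results of these data known. The named genes are the 7 members, up to 4 called genes of each pathway list and up to 2 of each marker list with the smallest adjusted p. Genes named outside this rule (Etv1, Fgf8, Fgf9, Fgf10, Fgf11, Fgf12, Fgf13, Fgf14, Fgfr1, Fgfr2, Fgfr3, Dusp9, Ier2, Il17ra, Msx1, Sulf1, Acan, Col2a1, Myog, Krt15, Wnt5a and the tissue markers Prrx1, Tbx5 and Hoxd13) were chosen after their values were seen. The values of 1 gene that the rule names are not reported here. Fgf4, Fgf8, Fgf9, Fgf17, Msx1, Msx2, Meis1 and Meis2 each stand in both a pathway and a marker list, and Lhx9 in 2 marker lists. Steps across genes were tested on simulated data. Alternatives covered thresholds, adjustment, centring, trend and gene windows. Software was Python (3.11.15) with SciPy 1.17.1, numpy 2.4.6, pandas 2.3.3 and, for plots, matplotlib 3.10.9.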

Additional observations from a re-analysis of the deposited data

How the results depend on the processing

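No paired analysis was possible because the files hold no values per library, and for the same reason no replicate could be left out. The members kept a negative log2 change under every alternative run, and 5 stayed the number called with other adjustments or centring, 4 at a threshold of 0.01 and 6 at 0.1. It was 3 with the GC and length trend subtracted. There Spry1 (-0.41) and Il17rd (-0.29) lost the call, though both lay beyond the change needed for a call in the deposited test. It was 2 with a minimum absolute log2 change of 0.5, and 0 with a t distribution of 3 degrees of freedom, an alternative chosen after seeing the data. That distribution treats each SE as resting on 5 libraries alone and called 0% of all genes, with a smallest adjusted p of 0.549, so Etv4 (-0.61), Etv5 (-0.48), Spry1 (-0.55), Spry2 (-0.30) and Il17rd (-0.36) all lost their call.

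The share of all genes called, 11.7% of 11218, was 5.13% at a threshold of 0.01, 3.66% with the trend subtracted and 1.55% with a minimum change of 0.5. Adjusted over all 21940 genes with a p, it was 4.2% of that larger number, so the 2 shares have different denominators. Of the genes called, 67.5% were lower in Inv1DelCTCF, against 45% with the trend subtracted and 51.7% with a minimum change of 0.5. The 17 lower calls of the FGF pathway lists became 9 at 0.01, 3 with the trend subtracted, 1 with the minimum change and 0 with the t distribution. Their 4 higher calls became 1 at 0.01, 2 adjusted over all genes, 1 with the trend subtracted, 0 with the minimum change, 0 with the t distribution and 2 without the heparan sulfate list, chosen after seeing the data. The 8 lower calls among the readouts of other pathways became 4 at 0.01, 1 with the trend subtracted, 1 with the minimum change and 0 with the t distribution. The cause of these changes was not tested beyond what each alternative does by construction. Of 106 alternative values, 75 kept direction and call, stayed within 1.5 times of a count or share, or moved by less than their SE.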
